A study of Mus musculus with 6 samples.

Results

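The genes described here encode the proteins of the mitochondrial ribosome, chosen as every probe set whose annotation gave a single gene symbol made of Mrpl or Mrps and a number. The choice gave 71 of the 12393 genes measured, 47 of the large subunit (Mrpl) and 24 of the small subunit (Mrps), and the probe set of highest mean signal stood for each gene. Total RNA was measured on 3 arrays of tetraploid and 3 arrays of diploid hepatocytes from wild-type C57BL/6 mice aged 3 weeks. A Hoechst dye that binds DNA served to sort the isolated liver cells by DNA content, and RNA was taken right after the sort. Tetraploid hepatocytes carry a duplicated chromosome set, and a sort by DNA content can also place diploid cells in G2 or mitosis in that fraction. The replicates are called biological without a word on whether each is a different animal, and p-values here reflect only the spread among these arrays, part of which may be technical.

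Mitochondria keep their own ribosome, which makes the few proteins encoded in mitochondrial DNA, all of them subunits of the respiratory chain and ATP synthase. Its RNA comes from mitochondrial DNA, whereas its proteins are encoded in the nucleus, made in the cytosol and imported. Many have a relative in the bacterial ribosome, and the rest, with none there, are counted here as found only in mitochondria. Hepatocytes are rich in mitochondria, and inherited changes in several of these genes impair oxidative phosphorylation in humans.

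Intensities had been brought to nearly the same distribution on every array by the authors, so each value is a share of the array's signal, given here on a log2 scale. Fewer cells of a type and less RNA per cell cannot be told apart in such bulk samples, and the values hold no information on total RNA per cell. Pearson correlations between arrays lay between 0.992 and 0.997. The labelled cell type was borne out by its markers, whose 9 measured genes summed to a log2 intensity of 17.86 to 17.95 on tetraploid and 17.85 to 17.95 on diploid arrays. Summed endothelial markers (10 measured, 8 above the cutoff for dim genes) reached 10.14 to 10.37 on tetraploid and 9.95 to 10.13 on diploid arrays, and those of leukocytes (8 measured, 3 above the cutoff) 8.19 to 8.24 and 8.28 to 8.39 in the same order. Those pairs of ranges did not overlap. Of the 8 endothelial markers tested 7 had the higher mean in tetraploid cells, where 52.2% of all tested genes had the lower. An unadjusted limma p under 0.05 was found for 4, all higher, against 6.18% of all tested genes (2.32% higher). The median log2 difference of the 8 was 0.34, beyond that of any mitoribosomal gene. The water channel gene Aqp1 differed by 0.47 and the scavenger receptor gene Stab2 by -0.24, and 0 of the 8 passed the adjusted threshold. The ranges of Kupffer cell (6 of 9 above the cutoff), stellate cell (4 of 8), cholangiocyte (2 of 5) and erythroid (1 of 4) markers did overlap. The part of these cells in the results was not tested.

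No mitoribosomal protein gene passed the test for a change between the fractions. By limma, with Benjamini-Hochberg adjustment over 9295 tested genes, 0 of the 71 genes had an adjusted p under 0.05, as was the case for all tested genes (0%), and the smallest adjusted p among the 71 was 0.810. At an unadjusted p under 0.05 there were also 0 of 71, where 6.18% of all tested genes had one (2.32% higher and 3.85% lower in tetraploid cells). The log2 differences, tetraploid minus diploid, ran from -0.22 for Mrpl55 to 0.13 for Mrpl1, which are 0.857-fold and 1.09-fold. All 71 lay within 0.25 of 0, as did 93.7% of tested genes, and 0.506% of tested genes differed by over 1.5-fold.

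The 95% intervals were taken gene by gene for the probe set used, and other probe sets can lie outside them, as those of Mrpl35 at 0.23 and Mrps5 at 0.15 did. Every interval included 0, and 70 of 71 lay within 0.5 on either side of 0, against 86.7% of tested genes. The exception was Mrpl55, whose interval reached -0.50, or 0.707-fold. The highest upper bound was 0.32, or 1.25-fold, for Mrpl1. A 2-fold change was outside the interval of each of the 71 genes and of 98.9% of tested genes. The median standard error was 0.080 for these genes and 0.095 for all tested genes. Their mean log2 intensities, between 7.74 and 12.54, all lay above the cutoff of 5.06 below which genes were left out as dim, so no member was lost to that filter.

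**Figure D1:**
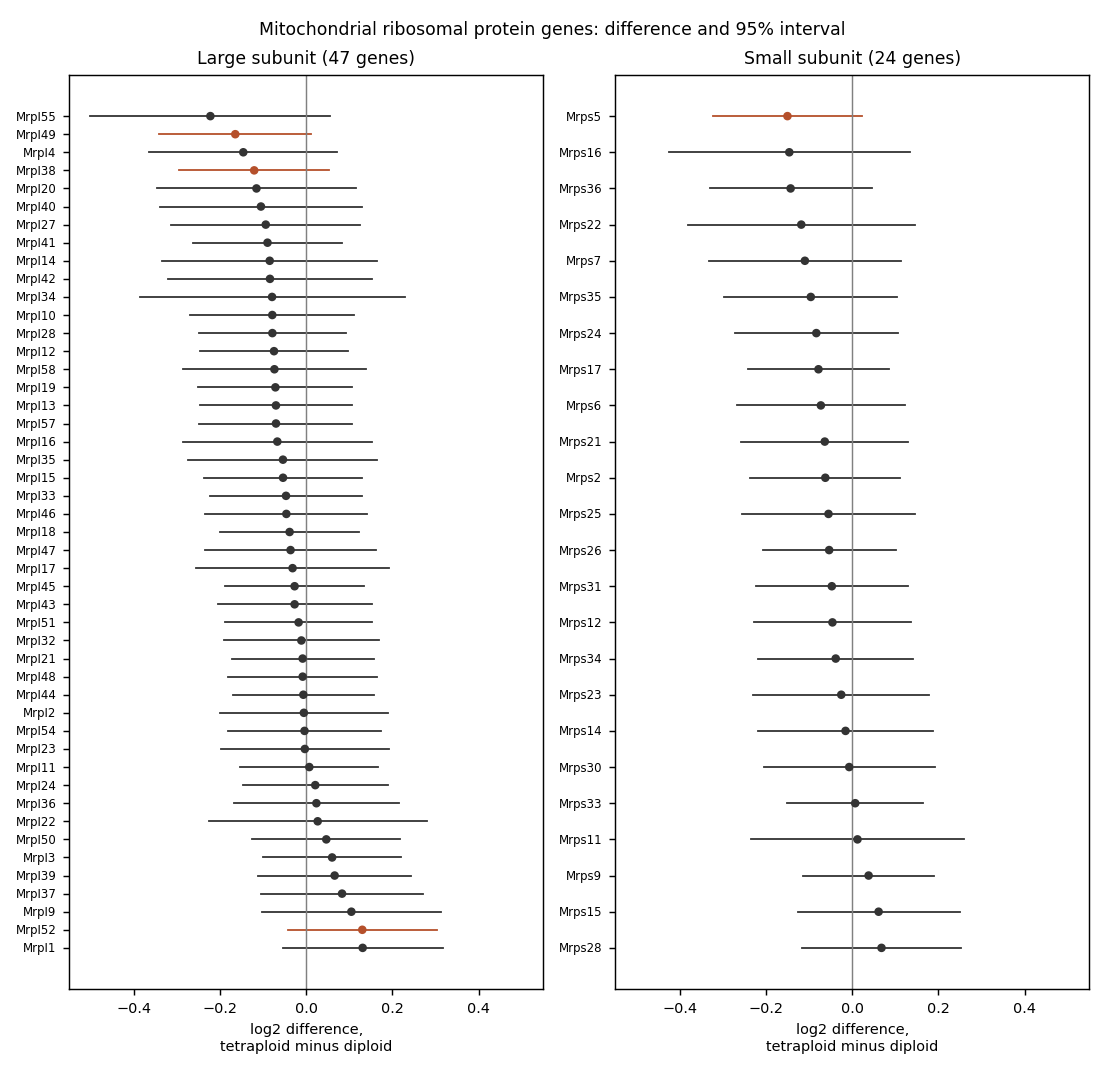
Log2 difference, tetraploid minus diploid, of each of the 71 genes (point) with its 95% interval from limma (line), with the large subunit on the left and the small subunit on the right. Orange marks the 4 genes whose fractions do not overlap. Every line crosses 0, and most points sit slightly left of it.

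The median log2 difference was -0.04 over 47 large subunit genes and -0.05 over 24 small subunit genes, against -0.0064 over all tested genes. The small subunit median minus the large subunit median was -0.016, and its sign turned when diploid replicate 2 was left out, to 0.0098. Tetraploid means were the lower ones for 36 of 47 large and 19 of 24 small subunit genes, together 55 of 71 (77.5%), against 52.2% of all tested genes. The 71 genes were read on the same 6 arrays and are not independent of each other. Of the 53 probe sets of these genes that were not used, 27 were lower in the tetraploid fraction.

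A gap between the fractions on all 3 against all 3 arrays was seen for 4 of 71 genes (5.63%), against 12.3% of tested genes. Of these, 3 were lower in the tetraploid fraction, where the background is 7.08%, and 1 was higher, where it is 5.22%. They were Mrpl49, Mrpl38 and Mrps5 on the lower side and Mrpl52 on the higher side.

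Mrpl49, a large subunit protein found only in mitochondria, had log2 intensities of 8.93, 8.79 and 8.81 on tetraploid arrays and 9.04, 9.04 and 8.94 on diploid arrays. The fractions were separate, but the highest tetraploid array stood only just below the lowest diploid array. The difference was -0.16 ± 0.08 (SE, limma adjusted p = 0.810), the smallest p among the large subunit genes. Mrpl38, also without a relative in the bacterial ribosome, had 8.60, 8.49 and 8.48 on tetraploid and 8.72, 8.60 and 8.62 on diploid arrays. Its fractions all but touched, and the difference was -0.12 ± 0.07.

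Mrpl52, a large subunit protein found only in mitochondria, was at 11.53, 11.38 and 11.39 on tetraploid arrays and at 11.28, 11.33 and 11.30 on diploid arrays. Every tetraploid array was above every diploid array, and the difference was 0.13 ± 0.07 (limma adjusted p = 0.843). Mrps5, whose bacterial relative lies where messenger RNA enters the small subunit, was at 8.93, 8.83 and 8.83 on tetraploid and 9.10, 8.98 and 8.96 on diploid arrays. It had the smallest p of the small subunit, with a difference of -0.15 ± 0.07 and an adjusted p = 0.822.

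Other probe sets of these 4 genes gave smaller or opposite differences. The second probe set differed by -0.01 for Mrpl49, by 0.05 for Mrpl38 and by 0.15 for Mrps5 where the probe set used gave -0.15. The 3 others of Mrpl52 differed by 0.03, 0.0075 and 0.03. More than 1 probe set read 33 of the 71 genes. In 21 of these genes an unused probe set disagreed with the one used, by an opposite sign in 15 and otherwise by a size smaller by over 1.5 times. Of all 124 probe sets of these genes, 82 were lower and 42 higher, 0 passed the adjusted threshold, and 1, a dimmer probe set for Mrpl35 at 0.23, had an unadjusted limma p under 0.05.

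The stalk, where translation factors bind, is formed by Mrpl10, Mrpl11 and Mrpl12 at the side of the large subunit. Mrpl12, which has also been found bound to the mitochondrial RNA polymerase, was at 11.78, 11.69 and 11.69 on tetraploid arrays and 11.87, 11.74 and 11.77 on diploid arrays. The fractions overlapped, with a difference of -0.07 ± 0.07. Mrpl10, which anchors the stalk, differed by -0.08 ± 0.08, and Mrpl11, at its base, by 0.0071 ± 0.07.

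Proteins near the catalytic centre and the wall of the exit tunnel were likewise close to 0. Mrpl2 and Mrpl16, whose bacterial relatives sit beside the peptidyl transferase centre, differed by -0.0054 ± 0.08 and -0.07 ± 0.09, and Mrpl3 by 0.06 ± 0.07. The other probe sets of Mrpl3 differed by -0.07 and -0.12. Mrpl4, which reaches into the tunnel, was at 9.16, 8.93 and 9.18 on tetraploid and 9.29, 9.28 and 9.14 on diploid arrays. Only tetraploid replicate 2 stood apart from the other arrays, and the difference was -0.15 ± 0.09. At the mouth of the tunnel, Mrpl23 and Mrpl24 differed by -0.0032 ± 0.08 and 0.02 ± 0.07. Mrpl45, which holds the ribosome at the inner mitochondrial membrane, differed by -0.03 ± 0.07.

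Among the other large subunit genes, Mrpl55 had the lowest difference and one of the widest errors. It was at 9.36, 9.08 and 9.28 on tetraploid arrays and 9.68, 9.32 and 9.38 on diploid arrays, so diploid replicate 1 was high and tetraploid replicate 2 low, with overlap between the rest. The difference was -0.22 ± 0.12 (limma adjusted p = 0.839). Mrpl1, of the stalk through which spent transfer RNA leaves, was at 9.48, 9.36 and 9.26 on tetraploid and 9.22, 9.28 and 9.22 on diploid arrays. Its difference was 0.13 ± 0.08, and its other probe sets gave 0.15 and 0.03. Mrpl44, which resembles ribonuclease III, differed by -0.0067 ± 0.07, Mrpl41 by -0.09 ± 0.07 and Mrpl13 by -0.07 ± 0.08. Mrpl58, a release factor relative that frees stalled ribosomes, differed by -0.07 ± 0.09. Mrpl39 and Mrpl42, named for a high probe set signal, differed by 0.07 ± 0.08 and -0.08 ± 0.10, and Mrpl37, Mrpl19 and Mrpl54, named for a low one, by 0.08 ± 0.08, -0.07 ± 0.08 and -0.0039 ± 0.08.

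In the small subunit, Mrps12, the protein of the decoding centre, was at 10.55, 10.39 and 10.44 on tetraploid arrays and 10.58, 10.49 and 10.46 on diploid arrays. The fractions overlapped and the difference was -0.05 ± 0.08. Mrps7, of the small subunit head, was at 10.36, 10.27 and 10.33 on tetraploid and 10.62, 10.35 and 10.33 on diploid arrays, and Mrps16 was at 10.96, 10.88 and 10.74 on tetraploid and 11.24, 10.82 and 10.96 on diploid arrays. For both, diploid replicate 1 was the highest array by a wide margin and the rest overlapped. The difference was -0.11 ± 0.10 for Mrps7 and -0.15 ± 0.12 for Mrps16.

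The proteins of the small subunit found only in mitochondria also had overlapping fractions. Mrps22, changed in an inherited human disorder of the respiratory chain, differed by -0.12 ± 0.11, Mrps35 by -0.10 ± 0.09 and Mrps34 by -0.04 ± 0.08. Among those with a bacterial relative, Mrps2 differed by -0.06 ± 0.07, Mrps6 by -0.07 ± 0.08, Mrps17 by -0.08 ± 0.07 and Mrps28, the highest of the small subunit, by 0.07 ± 0.08. Mrps14 and Mrps24, named for a high signal, differed by -0.02 ± 0.09 and -0.08 ± 0.08, and Mrps11 and Mrps23, named for a low one, by 0.01 ± 0.11 and -0.03 ± 0.09. Mrps30, which structures place in the large subunit despite its name, differed by -0.0070 ± 0.08. Mrps36, since reassigned to the ketoglutarate dehydrogenase complex, was at 9.21, 9.16 and 9.13 on tetraploid and 9.41, 9.31 and 9.19 on diploid arrays. Its fractions overlapped narrowly and the difference was -0.14 ± 0.08.

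**Figure D2:**
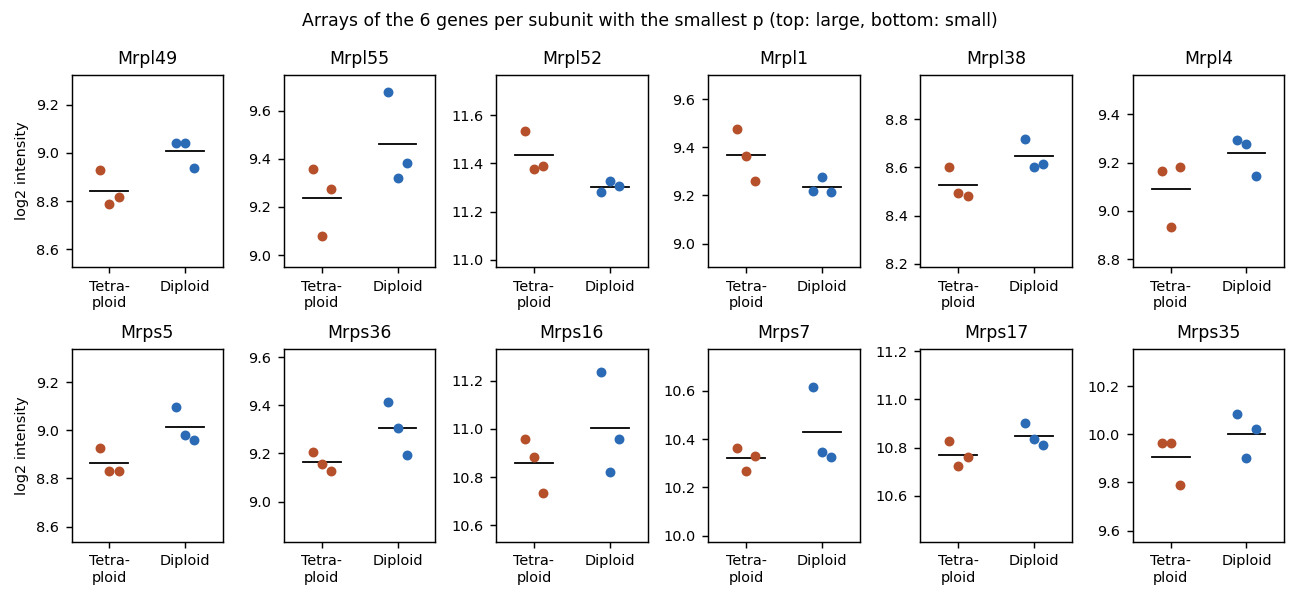
Log2 intensity on each array for the 6 genes with the smallest unadjusted limma p in the large subunit (top row) and the small subunit (bottom row). Points are tetraploid (orange, left) and diploid (blue, right) arrays in the order of replicates 1 to 3, lines are means over 3 arrays, and each panel spans the same range of log2 intensity. Diploid replicate 1 is far above the other diploid arrays for Mrpl55, Mrps16 and Mrps7.

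The 43 genes with a relative in the bacterial ribosome had a median log2 difference of -0.05. The 28 counted as found only in mitochondria, among them Mrps36 by its symbol, had a median of -0.04. The lower mean in tetraploid cells was seen for 32 of 43 and 23 of 28, against 52.2% of all tested genes.

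The 71 genes varied together from array to array, and the spread within a fraction was as large as the difference between the fractions. The score of a subunit is the mean, over its genes, of the log2 value minus that gene's mean over the 6 arrays. Tetraploid replicates 1 to 3 scored 0.03, -0.05 and -0.04 for the large subunit, and diploid replicates 1 to 3 scored 0.08, -0.0092 and -0.02. For the small subunit the scores were 0.02, -0.04 and -0.05 on tetraploid and 0.09, 0.0083 and -0.02 on diploid arrays. Replicate 1 was thus the highest array of each fraction in both subunits, and the subunits kept close to each other on every array. Tetraploid minus diploid, the score differed by -0.03 for the large and -0.05 for the small subunit, beside SDs over 3 arrays of 0.05 in tetraploid and 0.05 in diploid cells for the large subunit, and of 0.04 in tetraploid and 0.06 in diploid cells for the small subunit.

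Diploid replicate 1 held the highest of the 6 values for 43 of the 71 genes (60.6%), whereas it did so for 27.3% of all tested genes. The lowest value fell on tetraploid replicate 2 for 24 genes (33.8%), against 20.2% of all tested genes. It fell on tetraploid replicate 3 for 20 (28.2%), against 14.7%. Leaving out diploid replicate 1 moved the large subunit median to -0.0023 and the small subunit median to -0.02, with 42 of 71 genes lower. Leaving out diploid replicate 3 gave -0.05 and -0.08, with 58 of 71 lower. Leaving out either tetraploid replicate 2 or 3 moved the large subunit median to -0.02. Of the 6 arrays, diploid replicate 1 moved both medians nearest to 0 when left out.

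The replicate 1 arrays differed in other lists too. Among the 9 hepatocyte markers Tat and Pck1, both hormone-responsive enzymes, were low there. Tat was at 12.29, 13.52 and 13.41 on tetraploid and 12.58, 13.46 and 13.55 on diploid arrays, and Pck1 at 12.98, 13.95 and 13.72 on tetraploid and 12.93, 13.88 and 13.76 on diploid arrays. The mean deviation of the 9 markers was -0.17 on tetraploid replicate 1 and -0.15 on diploid replicate 1, and 0.05 to 0.10 elsewhere. Their median deviation on the replicate 1 arrays was 0.00068 in tetraploid and -0.04 in diploid cells. The 11 measured nuclear regulators of mitochondrial genes scored -0.17 and -0.18 on these arrays and between -0.0074 and 0.18 elsewhere. The 3' minus 5' log2 signal, a measure of RNA quality, lay between -0.08 and 0.02 for Gapdh on tetraploid arrays, against 0.04, -0.02 and 0.04 on diploid replicates 1 to 3. For beta-actin it lay between 1.56 and 1.69 on tetraploid arrays, against 1.59, 1.71 and 1.69 on diploid replicates 1 to 3. Diploid replicate 1 was within the range of the other 5 arrays for beta-actin and level with diploid replicate 3 for Gapdh. The array weights that limma estimated over all tested genes were 0.58 for diploid replicate 1 and 0.89 to 1.43 for the other 5. With these weights the large subunit median was -0.026, and 50 of 71 genes were lower. The part of these shifts in the mitoribosomal scores was not tested.

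Pairs of these genes followed each other within the fractions. Over 2485 pairs, the median Pearson correlation of deviations from the fraction mean was 0.40 over 6 arrays, and it was 0.41 between a large and a small subunit gene. For cytosolic ribosomal proteins it was 0.50 and for oxidative phosphorylation subunits 0.47, while for every ninth tested gene it was 0.01. The 6 points share their libraries, so these values describe the arrays only.

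**Figure D3:**
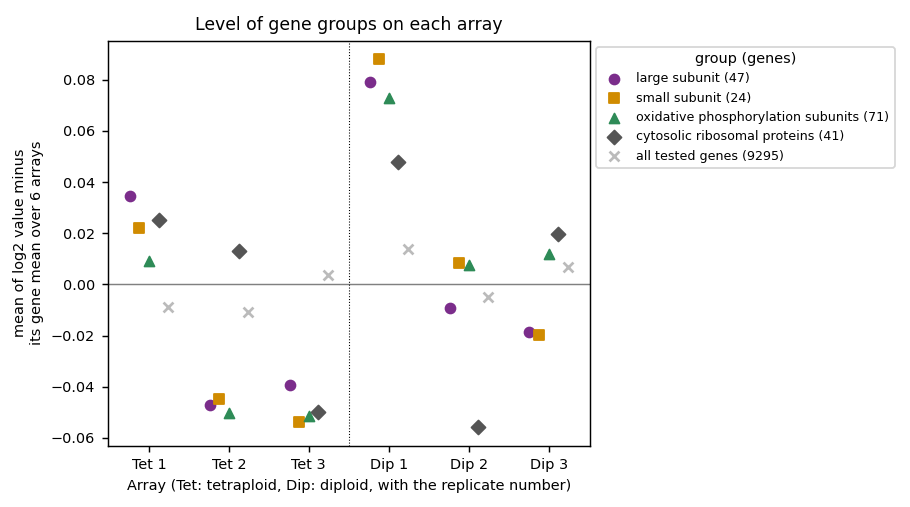
Mean of the log2 value minus the gene's own mean over 6 arrays, for 5 groups of genes on each array, with tetraploid arrays on the left and diploid arrays on the right. The large subunit (circles) and the small subunit (squares) lie close together on all arrays and are highest on diploid replicate 1, at 0.08 and 0.09.

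Beside other genes of similar function, the mitoribosomal genes lay between the respiratory chain and the cytosolic ribosome. The 71 measured nuclear subunits of oxidative phosphorylation, some of which work beside the products of the mitochondrial ribosome, had a median log2 difference of -0.07, with 63 lower and 8 higher and 0 past the adjusted threshold. Their fractions did not overlap for 23 of 71 (32.4%), all lower in tetraploid cells, against the 4 of 71 mitoribosomal genes. Among all tested genes 12.3% had no overlap, 7.08% on the lower side, and 52.2% had the lower mean in tetraploid cells. Cyc1, cytochrome c1, was at 12.63, 12.68 and 12.74 on tetraploid and 12.86, 12.85 and 12.84 on diploid arrays, and Ndufa8, a subunit of complex I, differed by -0.17 ± 0.08. The 41 cytosolic ribosomal proteins had a median of 1.0e-05, 21 higher and 20 lower means, and 0 whose fractions did not overlap. Rpl12, at -0.24 ± 0.11, and Rpl39, at 0.09 ± 0.08, had the smallest p-values there, and near-identical copies in the genome make single cytosolic ribosomal values uncertain. The difference between these groups was not tested.

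Of 10 further names of mitoribosomal subunits, 7 had a probe set, and Ict1 and Mrp63 are older names of Mrpl58 and Mrpl57. Of the 7, 6 were lower and 1 higher, 0 passed the adjusted threshold, and the median was -0.05. Mrps18b, a small subunit protein whose symbol carries a letter after the number, had the lowest difference of the 7. It was at 9.20, 9.24 and 9.44 on tetraploid and 9.78, 9.60 and 9.45 on diploid arrays, a difference of -0.32 ± 0.11 (limma adjusted p = 0.757). Tetraploid replicate 3 and diploid replicate 3 were almost equal, so the gap was narrow, and its probe set may read more than 1 transcript. Its relatives Mrps18a and Mrps18c differed by -0.04 ± 0.08 and 0.06 ± 0.09. Gadd45gip1 and Ptcd3, which are subunits under other names, differed by -0.11 ± 0.10 and -0.06 ± 0.07.

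Genes that build and serve the mitochondrial ribosome had 0 calls at the adjusted threshold. The median over 19 measured assembly genes was 0.02, with 11 on the higher and 8 on the lower side. Mrm3, which methylates the large ribosomal RNA, was at 7.48, 7.62 and 7.69 on tetraploid and 7.77, 7.77 and 7.93 on diploid arrays. The fractions were separate and the difference was -0.23 ± 0.09 (limma adjusted p = 0.779). Rcc1l and Mterf3, both needed for ribosome assembly, differed by 0.17 ± 0.10 and 0.13 ± 0.09. Translation factors and related genes had a median of -0.09, with 9 of 12 on the lower side and 3 on the higher. Gfm1, the elongation factor that moves the ribosome along, was at 10.55, 10.51 and 10.57 on tetraploid and 10.70, 10.66 and 10.61 on diploid arrays. Its difference was -0.11 ± 0.07, with Ptcd2 at -0.17 ± 0.09 and the initiation factor Mtif2 at 0.10 ± 0.07.

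Genes that charge mitochondrial transfer RNA had a median of 0.02, and 9 of 13 had the higher mean in tetraploid cells and 4 the lower. Sars2, the mitochondrial seryl-tRNA synthetase, was at 6.54, 6.58 and 6.61 on tetraploid and 6.30, 6.52 and 6.39 on diploid arrays. Its fractions did not overlap, at 0.17 ± 0.08, while Gars, which also serves the cytosol, differed by -0.11 ± 0.09 and Gatb by 0.07 ± 0.08. For 15 genes of mitochondrial DNA transcription, copying and RNA processing the median was 0.03 (8 higher, 7 lower), and the DNA polymerase gene Polg differed by -0.14 ± 0.09, Mterf2 by 0.18 ± 0.12 and Hsd17b10, a subunit of mitochondrial RNase P, by -0.09 ± 0.07. The 11 nuclear regulators had a median of -0.00072, with 5 on the higher and 6 on the lower side. The transcription factors Yy1 and Gabpa differed by 0.17 ± 0.15 and 0.11 ± 0.11, with overlapping fractions, and the co-regulator Hcfc1 by -0.14 ± 0.08.

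**Figure D4:**
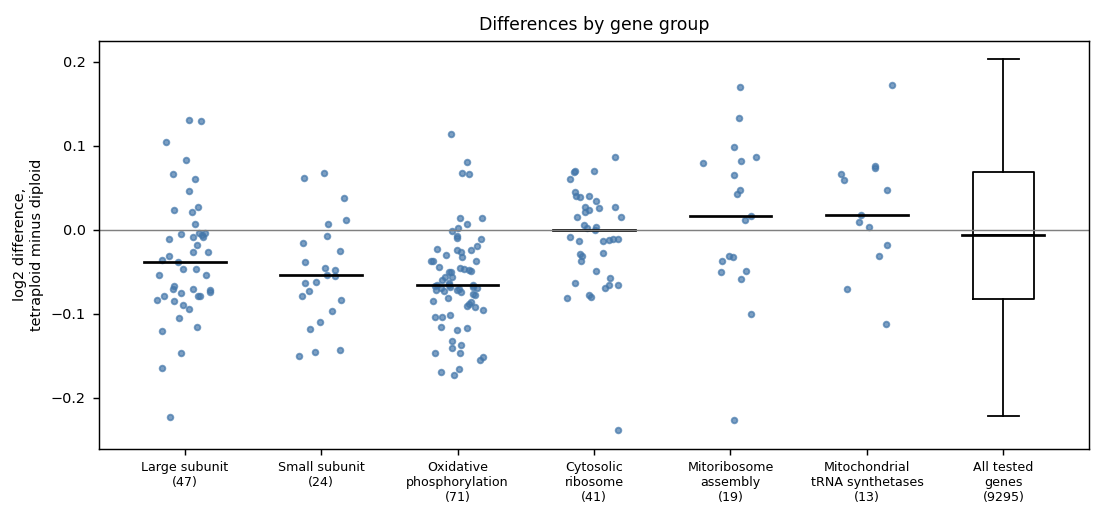
Log2 difference, tetraploid minus diploid, by gene group, with the number of genes below each name. Points are genes, black lines are medians, and the box of all 9295 tested genes spans its middle 50% with whiskers at the 5th and 95th percentiles. Nearly all points of the large and small subunits lie inside the whiskers, with medians of -0.04 and -0.05.

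Since the genes varied together across arrays, their promoters were read for shared features. RefSeq windows of 250 bases before to 50 bases after the start (GRCm38.p6) were matched by symbol for 62 of the 71 genes. Mrpl4, Mrpl13, Mrpl15, Mrpl19, Mrpl38, Mrpl54, Mrps28, Mrps34 and Mrps35 had no window in the table. Nuclear respiratory factor NRF1, the ETS factor GABPA and YY1 are known regulators of nuclear genes for mitochondrial proteins. Exact matches on either strand were counted to an NRF1 core (CGCATGCG), an ETS motif bound by GABPA (CCGGAAG) and a YY1 motif (AAGATGG). An ETS and a YY1 match can overlap by the letters AAG.

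The ETS motif was in 20 of 62 windows (32.3%), against 11.9% of 17492 protein-coding genes and 18.1% of the 7473 tested genes with a window. The YY1 motif was in 11 (17.7%), against 6.37% and 7.53%. The NRF1 core was in 6 (9.68%), against 2.54% and 3.91%, and all 6 belonged to the large subunit, with 0 of 21 small subunit windows holding it. In all, 32 of 62 windows held at least 1 of these motifs. A CCAAT box (CCAAT, 38.7% against 39.0% of protein-coding genes) was no more frequent, and a TATA box (TATAAA, 6.45% against 13.3%) and an E-box (CACGTG, 6.45% against 7.90%) were not more frequent either. The windows were rich in CpG, with an observed over expected ratio above 0.6 in 93.5%, against 70.2% of tested and 48.3% of all protein-coding genes. These matches are descriptions of sequence, not of binding.

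Divergent gene pairs were common. Another protein-coding gene started on the opposite strand within 1000 bases upstream for 20 of 62 genes (32.3%), against 12.4% of tested and 8.04% of all protein-coding genes. For the large subunit the count was 16 of 41 and for the small subunit 4 of 21. In one pair both partners are mitoribosomal genes, Mrpl46 and Mrps11, whose starts lie 42 bases apart on chromosome 7 and lead to the large and the small subunit.

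**Figure D5:**
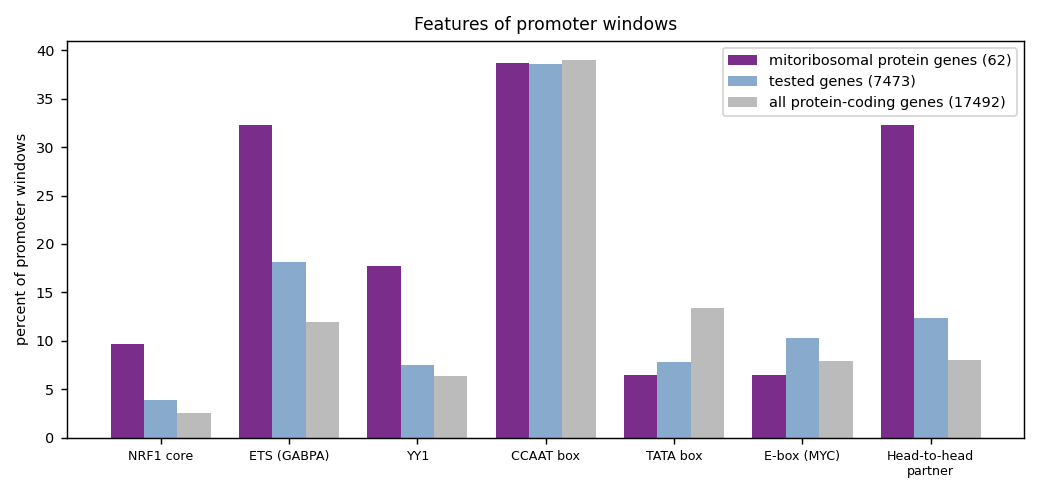
Percent of promoter windows that hold each motif, or that have a gene starting on the opposite strand within 1000 bases upstream, for 62 mitoribosomal protein genes, 7473 tested genes and 17492 protein-coding genes. The ETS, YY1 and NRF1 motifs and divergent partners are more frequent in the first group, and the CCAAT box is not.

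The windows below, from RefSeq (GRCm38.p6) and written 5′ to 3′ along the gene, show these features in some of the genes. Capitals mark matches to the NRF1, ETS and YY1 motifs on either strand. Mrpl49 (chr19:6057706-6058005, minus strand) had the smallest p of the large subunit and holds the YY1 motif at 2 places, facing Fau, a cytosolic ribosomal protein gene that starts 192 bases away. Mrpl52 (chr14:54426659-54426958, plus strand) was the gene with the higher tetraploid arrays and holds ETS and YY1 motifs. Mrpl32 (chr13:14612988-14613287, minus strand) holds the NRF1 core at 2 places and the YY1 motif at 1. Mrps11 (chr7:78782881-78783180, plus strand) lies opposite Mrpl46, whose own window (chr7:78783040-78783339, minus strand) overlaps it in part and holds none of the 3 motifs. Mrps12 (chr7:28741772-28742071, minus strand) lies opposite Sars2, and Mrpl27 (chr11:94653541-94653840, plus strand) opposite Eme1.
Mrpl49: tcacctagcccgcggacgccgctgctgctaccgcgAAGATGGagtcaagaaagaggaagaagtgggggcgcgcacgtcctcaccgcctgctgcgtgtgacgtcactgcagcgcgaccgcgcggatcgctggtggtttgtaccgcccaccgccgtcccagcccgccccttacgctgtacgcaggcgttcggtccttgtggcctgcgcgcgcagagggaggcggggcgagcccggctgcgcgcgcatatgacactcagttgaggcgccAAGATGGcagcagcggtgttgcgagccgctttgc
Mrpl52: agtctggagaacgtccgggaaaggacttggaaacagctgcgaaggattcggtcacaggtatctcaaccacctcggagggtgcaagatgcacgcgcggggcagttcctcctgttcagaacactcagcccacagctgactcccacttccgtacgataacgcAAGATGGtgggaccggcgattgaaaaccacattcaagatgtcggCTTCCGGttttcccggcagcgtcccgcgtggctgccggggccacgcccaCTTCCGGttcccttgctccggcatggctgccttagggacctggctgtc
Mrpl32: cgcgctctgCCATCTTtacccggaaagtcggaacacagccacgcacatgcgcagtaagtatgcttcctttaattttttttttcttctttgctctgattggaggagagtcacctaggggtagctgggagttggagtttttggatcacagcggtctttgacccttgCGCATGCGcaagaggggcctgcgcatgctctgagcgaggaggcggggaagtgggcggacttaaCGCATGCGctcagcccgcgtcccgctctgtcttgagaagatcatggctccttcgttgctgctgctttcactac
Mrps11: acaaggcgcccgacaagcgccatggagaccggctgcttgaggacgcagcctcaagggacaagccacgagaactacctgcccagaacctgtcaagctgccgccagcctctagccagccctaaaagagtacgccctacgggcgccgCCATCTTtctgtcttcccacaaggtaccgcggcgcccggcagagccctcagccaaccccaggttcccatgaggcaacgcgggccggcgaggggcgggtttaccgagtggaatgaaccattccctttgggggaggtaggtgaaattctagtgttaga
Mrps12: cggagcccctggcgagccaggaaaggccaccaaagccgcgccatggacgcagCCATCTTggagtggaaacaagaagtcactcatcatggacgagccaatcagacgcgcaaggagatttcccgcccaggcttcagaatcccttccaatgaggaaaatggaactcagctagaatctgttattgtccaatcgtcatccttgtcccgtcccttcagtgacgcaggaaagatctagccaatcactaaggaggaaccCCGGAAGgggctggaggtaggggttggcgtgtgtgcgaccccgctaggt
Mrpl27: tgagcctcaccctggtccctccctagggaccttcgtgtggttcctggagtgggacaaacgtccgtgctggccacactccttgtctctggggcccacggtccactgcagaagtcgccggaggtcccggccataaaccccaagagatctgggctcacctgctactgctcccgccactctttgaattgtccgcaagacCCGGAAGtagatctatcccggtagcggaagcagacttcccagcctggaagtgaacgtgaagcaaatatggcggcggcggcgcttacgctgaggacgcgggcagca

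Genes that share a promoter region did not always have like values. Mrpl46 was at 10.08, 9.99 and 10.04 on tetraploid and 10.21, 9.999 and 10.05 on diploid arrays, a difference of -0.05 ± 0.08, and Mrps11 differed by 0.01 ± 0.11. Mrps12 differed by -0.05 ± 0.08 and Sars2, whose start lies 147 bases away, by 0.17 ± 0.08. Mrpl27 was at 11.67, 11.51 and 11.54 on tetraploid and 11.82, 11.55 and 11.63 on diploid arrays, with overlap and a difference of -0.09 ± 0.09. Eme1, a subunit of a DNA repair nuclease, starts 48 bases from Mrpl27 and was at 5.13, 5.24 and 4.83 on tetraploid and 5.69, 5.58 and 5.45 on diploid arrays. Its fractions were clearly separate, at -0.51 ± 0.12, yet it did not pass the threshold (limma adjusted p = 0.387), and its signal lay near the cutoff of 5.06 for dim genes. Of the 20 genes with a partner, 16 had a partner that was tested. Of these partners 11 were lower and 5 higher, where 52.2% of all tested genes were lower. An unadjusted limma p under 0.05 was found for 1, Eme1, where 6.18% of all tested genes had one. Mrpl46 and Mrps11 count among these partners. Whether the difference within any of these pairs exceeds chance was not tested.

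The differences between fractions were then set beside the promoter features. The median log2 difference was -0.04 for the 20 genes with the ETS motif and -0.05 for the 42 without it. It was -0.05 both for the 11 genes with the YY1 motif and for the 51 without. With the NRF1 core it was 0.0077 over only 6 genes, all of the large subunit, of which 3 were lower in tetraploid cells. Without the core it was -0.05 over 56 genes, of which 44 were lower. Genes with and without a divergent partner were at -0.04 and -0.05. None of these contrasts was tested.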

How the data were processed

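Intensities of 22690 probe sets on 6 Affymetrix arrays were deposited by the authors on a linear scale and converted to log2 here. RMA, which corrects background, equalises the arrays and summarises probes, is named per the submitters' processing notes, and no version is given in the sources used here. Control probe sets (64) were left out. Platform annotation gave 1 symbol to 20380 probe sets, several to 691 and none to 1555, and 20351 matched RefSeq (GRCm38.p6) by Entrez identifier with 0 symbols changed. The brightest probe set stood for each of 12393 genes, and the dimmest 25% of genes were left out, which left 9295. The fractions were compared over all of these with limma 3.58.1 in R 4.3.3 (two-sided, ploidy as the only factor, Benjamini-Hochberg threshold 0.05), tested on simulated data. Intervals use its moderated error.

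Members and lists were chosen with earlier results of these data known. Named genes were the 6 with the smallest p, the 3 highest and 3 lowest in signal in each subunit, genes with a known role, and the 2 or 3 with the smallest p in each other list, with others named from their values. Of the 71 genes, 28 were read from a probe set of a kind that can match several transcripts. Of 75 RefSeq genes that fit the symbols, 4 (Mrpl30, Mrpl53, Mrps10 and Mrps27) had no probe set of their own and were not analysed here. The number of arrays limits the precision. Motifs, windows and divergent pairs came from the first RefSeq window of each gene. Alternatives covered probe set choice, dim genes, normalization, weights, variance model, replicate block, subunit assignment and each array left out.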

Additional observations from a re-analysis of the deposited data

How the results depend on the processing

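Under 16 other settings applied to the gene test, 0 of the 71 genes passed the adjusted limma threshold in each, with at most 1 at an unadjusted p under 0.05. Over all genes 0 passed, except 9 with a replicate block, and leaving out 1 array in turn gave 0 to 1. The replicate numbers did not pair all arrays: the correlation of deviations between same-numbered arrays was 0.57, -0.20 and -0.20. Tetraploid replicate 2 correlated best with diploid replicate 3 (0.69), and tetraploid replicate 3 with diploid replicate 2 (0.38). Whether these arrays share a preparation was not tested, and no setting blocked on this match. Under the replicate block the subunit medians were -0.04 and -0.05 as before, because a block in a balanced layout cannot change a difference. The large subunit median ranged from -0.06 to -0.0023 and the small subunit median from -0.08 to -0.02 over the arrays left out, and the small minus the large median from -0.033 to 0.0098. Requantiled arrays gave -0.05 and -0.08. Of 600 differences of 40 named genes, 591 moved by less than their standard error. Part of these could not move, since the replicate block, the cutoff for dim genes and the variance model leave each difference unchanged. A further 7 moved by more. Of the differences larger than their error, 2 changed sign. They were Mrpl38, at 0.046 without probe sets that can match several transcripts, and Mrps5, at 0.0015 with the mean of all its probe sets. Both follow from the opposite sign of the other probe set.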

Other observations

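A total of 3 probe sets named a mitoribosomal gene together with another gene and were left out of the gene values. The probe set for Mrpl30 and Gm6238 had log2 intensities of 11.995, 11.95 and 11.85 on tetraploid arrays and 12.02, 11.90 and 11.91 on diploid arrays, a difference of -0.0095 ± 0.08 (SE, limma over all probe sets). The probe set for Mrpl53 and Ccdc142 was at 10.88, 10.88 and 10.88 on tetraploid and 11.03, 10.88 and 10.83 on diploid arrays, a difference of -0.03 ± 0.08. The probe set for Mrps34 and Nme3, a nucleoside diphosphate kinase gene, differed by 0.08 ± 0.08, against -0.04 ± 0.08 for the probe set of Mrps34 alone. In each the fractions overlapped.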
